A study of Homo sapiens with 12 samples.

Results

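The purine and CTP synthesis enzymes were followed as 10 genes, chosen by name, of the 57773 gene IDs in the deposited table. They were PPAT, GART, PFAS, PAICS, ADSL and ATIC, which encode the enzymes of inosine monophosphate (IMP) synthesis, IMPDH1, IMPDH2 and GMPS of the guanosine monophosphate (GMP) branch, and CTPS1, a CTP synthetase. All 10 were in the table and passed the filter on low values in every fit. The rule for them uses names, not measured values, but they were chosen with earlier results of these data known. RNA came from HEK293, a human embryonic kidney cell line, and from the extracellular vesicles (EVs) that these cells release. Every group, the normoxia controls included, carried the transfected 4EC1 plasmid (48 h of lipofection), which encodes an engineered system meant to load mRNA into EVs, and was grown with 10% serum. The 4 groups were normoxia cells, hypoxia cells (24 h in a hypoxia chamber), normoxia EVs and hypoxia EVs, with 3 libraries each. The labels do not say that replicates came from separate cultures, and every p-value below therefore covers just the spread among these libraries, which may be technical.

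Purine nucleotides are built stepwise on phosphoribosyl pyrophosphate (PRPP), with glutamine, glycine, aspartate and folate-borne one-carbon units as donors, and the route ends at IMP. IMP is the branch point: IMP dehydrogenase and GMP synthetase lead to GMP, and another branch leads to AMP. CTP synthetase converts UTP to CTP, the last step of pyrimidine nucleotide synthesis. Proliferating cells draw on both routes for RNA and DNA, and several of these genes are known targets of the transcription factor MYC, which binds the E-box CACGTG.

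Start regions of 3 members are shown for the motif counted below and for the gene pair that shares a start region: PAICS, whose start region is shared with PPAT on the opposite strand, ATIC, which held 2 E-boxes, and PFAS, which had the largest fall in hypoxia cells and held none. They are RefSeq windows on GRCh38.p14, from 250 bases before to 50 after the RNA start, written 5′ to 3′ on the gene's own strand, with CACGTG in capitals. The PAICS window is chr4:56435502-56435801 (plus strand), the ATIC window chr2:215311809-215312108 (plus strand) and the PFAS window chr17:8249039-8249338 (plus strand).
PAICS: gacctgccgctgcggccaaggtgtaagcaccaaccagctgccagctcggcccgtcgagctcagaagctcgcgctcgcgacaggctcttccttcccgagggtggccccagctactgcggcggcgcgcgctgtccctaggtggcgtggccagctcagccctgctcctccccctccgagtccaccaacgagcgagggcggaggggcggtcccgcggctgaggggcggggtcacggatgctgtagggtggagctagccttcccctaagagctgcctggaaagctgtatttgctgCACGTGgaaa
ATIC: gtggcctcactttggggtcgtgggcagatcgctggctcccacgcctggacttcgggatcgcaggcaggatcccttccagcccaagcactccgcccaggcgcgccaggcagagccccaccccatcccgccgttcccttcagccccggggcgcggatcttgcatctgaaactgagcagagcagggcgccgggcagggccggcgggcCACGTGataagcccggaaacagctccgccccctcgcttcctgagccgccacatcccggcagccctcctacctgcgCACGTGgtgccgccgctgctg
PFAS: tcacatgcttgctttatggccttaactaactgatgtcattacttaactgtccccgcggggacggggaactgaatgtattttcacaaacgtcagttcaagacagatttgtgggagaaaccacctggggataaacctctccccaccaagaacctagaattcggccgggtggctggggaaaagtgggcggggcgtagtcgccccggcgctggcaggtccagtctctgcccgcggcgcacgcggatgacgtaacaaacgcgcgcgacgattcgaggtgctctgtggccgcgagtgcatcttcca
RefSeq windows were found for 8 of the 10 members by symbol, and for ADSL and IMPDH2 only the names are given. CACGTG, which reads the same on both strands, was in the window nearest the annotated gene start of 3 of the 8 members (PPAT, PAICS and ATIC), beside 7.256% of 35116 windows of the same length. PPAT and PAICS lie head to head, with RNA starts 137 bases apart and windows that overlap by 236 bases, and they hold the same copy of CACGTG, beginning 40 bases after the PAICS start and 182 bases before the PPAT start. The copies of ATIC began 46 bases before and 29 bases after its start. The shorter ACGTG, searched on both strands, is contained in CACGTG and was in the nearest windows of the same number of members, 3 of 8, beside 21.41% of all windows. The GC box GGGCGG, searched on both strands, was in 7 of 8, beside 44.95%. These are matches of letters and do not show binding.

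Depth was 18059381 to 23400813 reads per library in cells, but 5266244 to 7001767 in EVs of normoxia and 3259453 to 6129782 in EVs of hypoxia. Reads over 6599 protein-coding genes whose cell mean was 20 units or less gave a near-silent density, in RPKM (reads per kilobase of exon, scaled to the library total), of 0.115 to 0.144 in normoxia cells and 0.171 to 0.201 in hypoxia cells. It was 0.339, 0.549 and 1.13 in normoxia EV replicates 1, 2 and 3, and 2.00 to 2.12 in the hypoxia EVs, so normoxia EV replicate 3 stood apart from its group. Of 8 kidney-line markers of HEK293 that were listed, 6 were in the table and all 6 had a mean of at least 10 in every group. Blood markers (10 genes) summed to 40.4 to 50.8 units in normoxia cells and 36.2 to 43.5 in hypoxia cells, against 99.9 to 281 in normoxia EVs and 357 to 443 in hypoxia EVs. Liver and plasma protein markers (10 genes) summed to 47.3 to 66.7, 40.2 to 87.1, 119 to 408 and 603 to 784 in the same order. Connective tissue markers (5 genes) summed to 330 to 419 in cells and 495 to 952 in EVs, and the 3 of 4 endothelial markers in the table to 29.3 to 48.1 in cells and 126 to 745 in EVs. In hypoxia EVs a mean of at least 10 was also reached by 9 of 10 blood markers and 8 of 10 liver and plasma markers. All 5 connective tissue and all 3 endothelial markers reached it there. In normoxia cells 1 blood marker and 1 liver and plasma marker did. In EVs this cut therefore does not set the HEK293 markers apart. The part of the blood, liver, connective tissue and endothelial marker RNAs in the EV results was not tested. Values below are in the deposited units, read counts divided by a library factor, unless a sentence says otherwise.

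In normoxia cells, levels per length (RPKM over the principal transcript) were highest for IMPDH2 at 175.3 ± 9.21 (SD, n = 3), followed by ATIC at 79.4 ± 3.81. GART at 60.6 and PAICS at 58.6 followed, and then CTPS1 at 55.3 and ADSL at 51.2, and within each of these pairs the libraries overlapped. IMPDH1 (35.3) and PFAS (32.3) came next, and PPAT (23.1) and GMPS (21.6), whose libraries overlapped, were lowest. The order depends on the gene model used for length. With the exons of all models of a gene, IMPDH2 stayed first at 103.9 RPKM, and PAICS at 50.5 came second and CTPS1 at 15.4 last. In hypoxia cells PFAS, PPAT and GMPS were at 20.31, 20.26 and 19.98 RPKM of principal transcript, and the libraries of each overlapped those of the next.

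**Figure D1:**
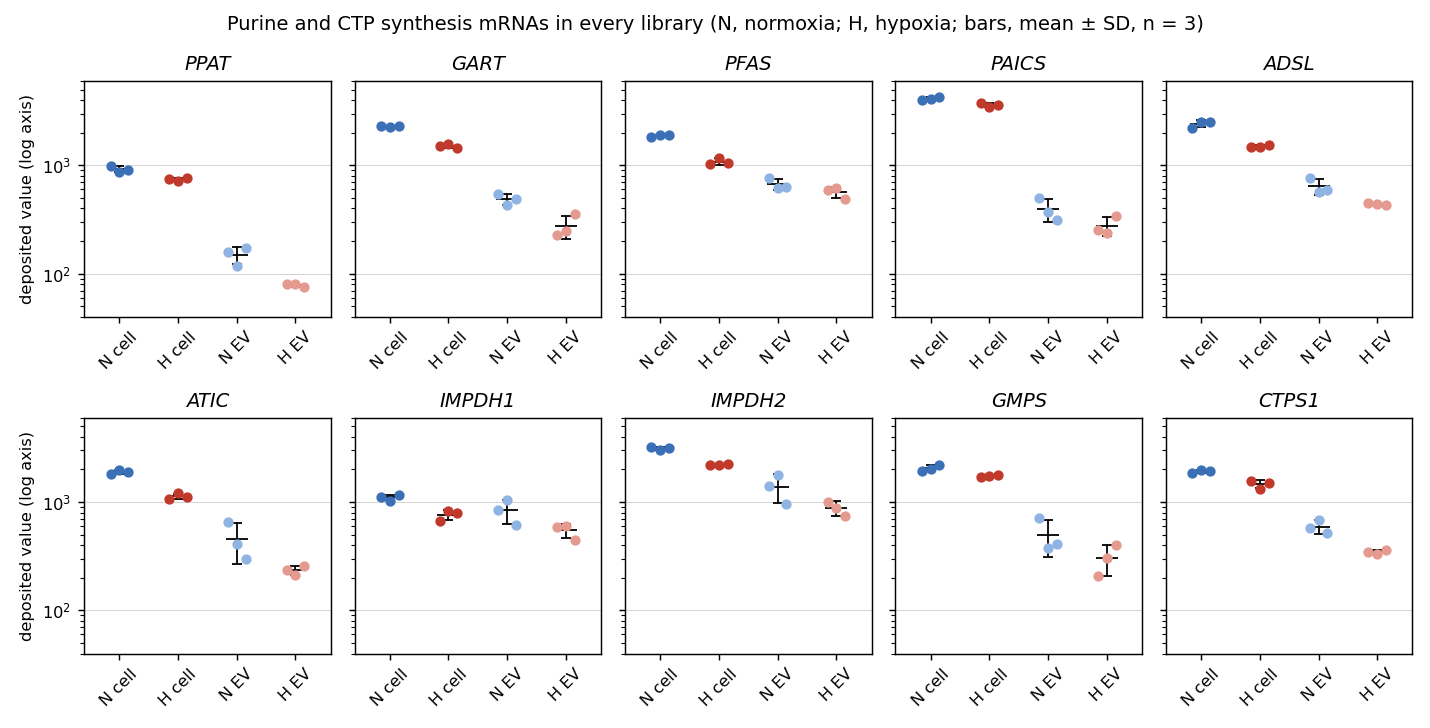
Deposited values of the 10 members in each of the 12 libraries on a log axis; points are libraries, bars the mean ± SD (n = 3), N and H normoxia and hypoxia. Hypoxia cell libraries lie below normoxia cell libraries in all 10 genes, and EV libraries lie below cell libraries in all but IMPDH1.

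In cells, all 10 members were lower after hypoxia, and the 3 hypoxia libraries lay below the 3 normoxia libraries for each of them. The falls were largest for PFAS, ATIC, ADSL and GART, intermediate for the IMP dehydrogenases and CTPS1, and smallest for PAICS, GMPS and PPAT, an order given as a description, since differences between members were not tested. Across all genes tested, 30.4% were called in either direction, 22.4% were called lower and 27.6% had 3 lower libraries that did not overlap, so 10 of 10 stands beside these shares. The median log2 fold change of the members was -0.52, against -0.07 over all 17260 genes. In bulk RNA of this cell line, less of an RNA in every cell and a loss from a part of the cells cannot be told apart.

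PFAS, which adds the amide nitrogen from glutamine in the fourth step, had 1833, 1911 and 1899.6 units in normoxia cells and 1024, 1171 and 1059 in hypoxia cells. Its log2 fold change was -0.80 (SE 0.07, adjusted p = 8.07e-16, limma-trend), leaving 57.7% of the normoxia mean. ATIC, whose protein carries out the last 2 steps to IMP, had 1825, 1980 and 1911 units in normoxia and 1071, 1205 and 1110.3 in hypoxia. Both groups were tight, and the fall was 0.76 on the log2 scale (SE 0.07, limma adjusted p = 5.23e-15).

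ADSL, the lyase that acts in IMP synthesis and again on the way to AMP, went from 2217, 2539 and 2515 units to 1481, 1489 and 1537, a log2 fold change of -0.69 (SE 0.06, limma adjusted p = 3.39e-14). GART, a protein that carries 3 activities of the route, went from 2287, 2277 and 2318 units to 1518, 1563 and 1436, a log2 fold change of -0.61 (SE 0.06, limma adjusted p = 1.59e-12). GART overlaps SON on the opposite strand, which was at 10186 units in normoxia cells, and ADSL overlaps SGSM3 on the same strand, at 1067. PFAS overlaps CTC1 on the opposite strand, at 234. For the counting, a strand setting was "not given in the sources used here", so reads of these pairs may have been assigned to either gene, and the values of GART, ADSL and PFAS are uncertain to that extent.

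The first enzyme and PAICS had smaller fold changes. PPAT, which commits PRPP to the route, had 989, 867 and 909 units in normoxia and 743, 722 and 759 in hypoxia, with a log2 fold change of -0.31 (SE 0.08, limma adjusted p = 0.000773). PAICS, which carries out carboxylation and the next joining step, had 3996, 4120.1 and 4241 units in normoxia and 3769, 3477 and 3621 in hypoxia, with a log2 fold change of -0.19 (SE 0.05, limma adjusted p = 0.00633). The PAICS groups were close together, at 87.9% of the normoxia mean.

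In the GMP branch, IMPDH2, the main IMP dehydrogenase of growing cells, had 3241, 2993 and 3134 units in normoxia and 2193, 2192 and 2227 in hypoxia (log2 fold change -0.50, SE 0.06, limma adjusted p = 1.27e-10). IMPDH1, the other isozyme, went from 1110.1, 1033 and 1164 units to 669, 833 and 797 (-0.53, SE 0.08, limma adjusted p = 8.08e-08). GMPS, which aminates XMP to GMP, had the smallest change of the branch, from 1949.5, 2024 and 2191 units to 1717, 1736 and 1763 (-0.24, SE 0.06, limma adjusted p = 0.00167). CTPS1 went from 1839.8, 1969 and 1954 units to 1581, 1334 and 1510.5 (-0.38, SE 0.06, limma adjusted p = 2.61e-06), and its groups did not overlap.

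With equal library totals in place of the deposited factors, the median of all genes moved from -0.07 to 0.06. That of the members moved from -0.52 to -0.39. The gap between them stayed at 0.45, which is no check, because a change of library factors moves all genes by nearly the same amount. All 10 members remained below 0, 7 were called, and PPAT (-0.19, adjusted p = 0.0527), GMPS (-0.11, adjusted p = 0.117) and PAICS (-0.06, adjusted p = 0.370, limma) were not. PAICS was also not called by edgeR on the recovered reads (-0.10, adjusted p = 0.135), by DESeq2 (-0.10, adjusted p = 0.102) or without hypoxia cell replicate 2 (-0.16, limma adjusted p = 0.0702). When the spread was estimated by limma over cells and EVs together (12 libraries), 2 members were called, PFAS and ADSL, beside 84 genes in all.

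**Figure D2:**
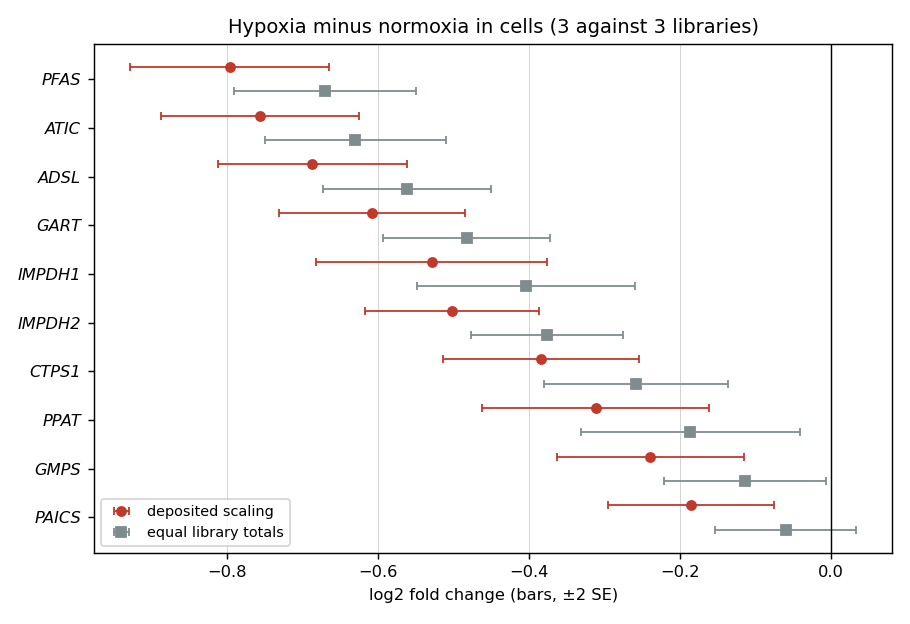
Hypoxia minus normoxia in cells as log2 fold change with ±2 SE bars, with the deposited scaling (circles) and with equal library totals (squares). All 10 point estimates are below 0 under both scalings, from -0.80 for PFAS to -0.06 for PAICS with equal totals.

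Ratios between members were taken within each library. PPAT stood at 22.4% ± 2.03 of PAICS in normoxia cells and 20.5% ± 0.671 in hypoxia cells (SD, n = 3), from deposited values not corrected for length, and the exact two-sided permutation test gave p = 0.1, the smallest it can give with 3 against 3 (Benjamini-Hochberg 0.2 over 6 tests). IMPDH1 stood at 35.3% ± 1.60 of IMPDH2 in normoxia cells and 34.8% ± 3.83 in hypoxia cells (exact two-sided permutation p = 0.9, adjusted 0.9), values that overlapped. PFAS relative to PAICS, a ratio chosen after its values were seen and given with no test, was 44.8% to 46.4% in normoxia cells and 27.2% to 33.7% in hypoxia cells, without overlap. As a share of all reads the 10 members took 0.200% ± 0.00290 in normoxia cells and 0.159% ± 0.00241 in hypoxia cells. In EVs the share was 0.0494% ± 0.00112 in normoxia and 0.0478% ± 0.000808 in hypoxia (SD, n = 3), and these libraries overlapped.

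**Figure D3:**
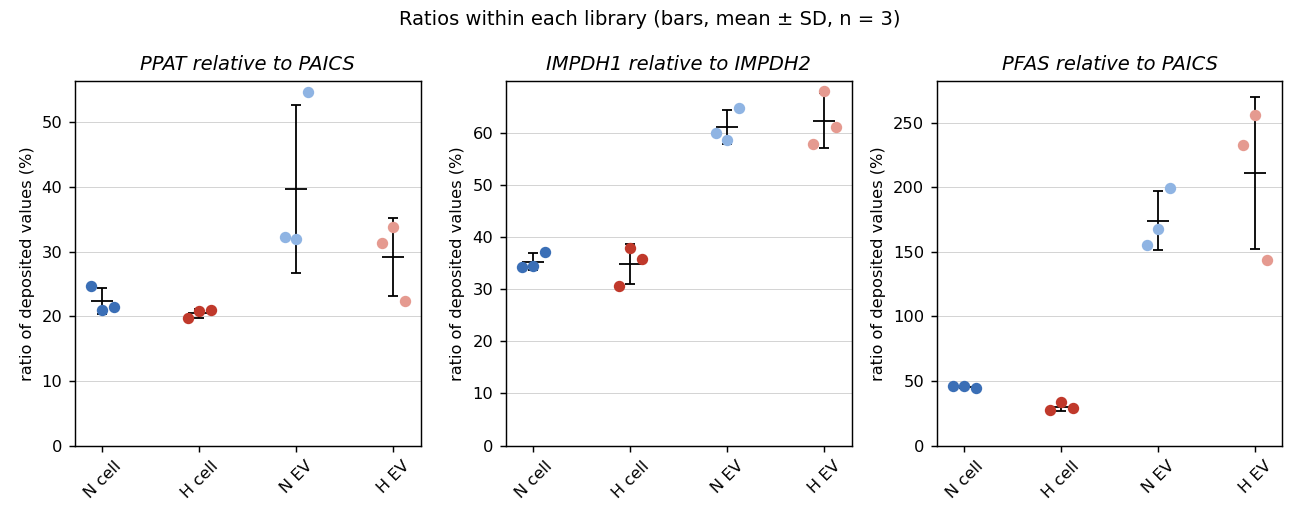
Ratios of deposited values within each library, in percent, for PPAT to PAICS, IMPDH1 to IMPDH2 and PFAS to PAICS; points are libraries, bars mean ± SD (n = 3). IMPDH1 lies between 57.9% and 68.0% of IMPDH2 in the EV libraries and between 30.5% and 38.0% in the cell libraries.

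Genes that feed the route or take its products were described from 7 lists of 75 genes, of which 74 were tested in cells. Of these, 33 were called lower (44.6%) and 4 higher, against the 22.4% and 8.01% over all genes. The PRPP supply genes had 7 of 11 lower and 0 higher, with a median of -0.31, among them TALDO1 (-0.47, limma adjusted p = 2.51e-08) and TKT (-0.39, limma adjusted p = 2.36e-07), enzymes of the pentose phosphate pathway. In the folate one-carbon genes 4 of 12 were lower, led by MTHFD1 (-0.48), which makes formyl-tetrahydrofolate for GART and ATIC, and FPGS (-0.60), which retains folates in cells; the median was -0.13.

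Of the AMP branch and salvage genes, 6 of 14 tested were lower and 1 was higher. ADSS2, which commits IMP to AMP, had a log2 fold change of -0.54, while AMPD3, an AMP deaminase, rose from 22.7 ± 2.00 to 79.8 ± 15.8 units (log2 fold change 1.75, SE 0.27, limma adjusted p = 3.72e-07). Pyrimidine synthesis had 4 of 9 lower, led by CAD (-0.51), the first enzymes of the pathway, and the uridine kinase UCK2 (-0.46). The nucleotide kinases had 4 of 12 lower and 2 higher. AK4, a mitochondrial adenylate kinase, rose from 504 ± 47.0 to 895 ± 36.7 units (log2 fold change 0.83, SE 0.08, limma adjusted p = 5.88e-13). GUK1 was the other higher kinase (0.23), named after its values were seen.

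Deoxynucleotide synthesis had 7 of 10 lower, among them RRM2 (-0.37), the ribonucleotide reductase subunit, and DUT (-0.57), which hydrolyses dUTP, and 1 higher, TK1 (0.285). Purine breakdown had 1 of 6 lower, NT5E, a nucleotidase of the cell surface, from 20.7 to 8.43 units (-1.18, limma adjusted p = 0.0468), and 0 higher. The NT5E call was lost in 11 of 15 alternatives. The other genes named here for cells, leaving aside GUK1 and TK1, kept their call in every alternative except the limma fit over cells and EVs together, in which AMPD3 alone was still called. The alternatives for GUK1 and TK1 in cells are not reported here.

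EV libraries held less of every member than cell libraries. Averaged over both oxygen states, all 10 were called lower in EVs than in cells, and for 9 of them, all but IMPDH1, no EV library reached a cell library of either group. Over all genes 74.9% were called, 31.8% lower and 43.1% higher, and 21.3% were lower without overlap. The members' median was -2.05 on the log2 scale, against 0.32 over all 24171 genes.

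PAICS, the member furthest below, had 495, 371 and 315 units in normoxia EVs and 255, 239 and 338 in hypoxia EVs, beside 3477 to 4241 in cells. The log2 difference was -3.56 (SE 0.12, limma adjusted p = 2.24e-14), and the normoxia EV mean was 9.55% of the normoxia cell mean. PPAT followed at -2.92 (SE 0.13, limma adjusted p = 4.92e-13). The remaining IMP synthesis genes were nearer to 0, with GART at -2.36, ATIC at -2.20, ADSL at -1.85 and PFAS at -1.22.

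In the GMP branch GMPS was at -2.33, IMPDH2 at -1.28 and IMPDH1 at -0.46 (SE 0.13, limma adjusted p = 0.00334). IMPDH1 had 852, 1041 and 620 units in normoxia EVs and 584, 606 and 451 in hypoxia EVs, which overlapped the cell range of 669 to 1164. The ratio of the isozymes differed between EVs and cells. IMPDH1 stood at 35.0% ± 2.64 of IMPDH2 over the 6 cell libraries and 61.7% ± 3.92 over the 6 EV libraries (SD, n = 6), higher in 6 of 6 EV libraries than in any cell library (exact two-sided permutation p = 0.00216, the smallest this test can give, and adjusted 0.0130). The 7 annotated IMPDH1 pseudogenes summed to a mean of 28.9 units (normoxia) and 32.0 (hypoxia) in cells and to 121 and 285 in EVs, so reads may have been split between them and IMPDH1. PPAT rose relative to PAICS, from 21.4% ± 1.72 of it over cells to 34.4% ± 10.7 over EVs (exact two-sided permutation p = 0.00433, adjusted 0.0130), with 54.7% in normoxia EV replicate 3 and 22.4% in hypoxia EV replicate 3. With the near-silent density removed, the direction turned in the mean over both oxygen states: the EV difference from cells was -6.31 for PPAT and -4.15 for PAICS, with PPAT at 0 in the 3 hypoxia EV libraries, so its fold depends on the pseudocount. CTPS1 was at -1.89 (SE 0.10, limma adjusted p = 6.73e-12).

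Of the 75 genes of the related lists, 47 were called lower in EVs than in cells (62.7%) and 10 higher, beside 31.8% and 43.1% of all genes. Here too, genes at like levels are not compared. The counts lower were 8 of 11 for PRPP supply (median -0.55), 8 of 12 for folate one-carbon supply (-0.97), 8 of 15 for the AMP branch and salvage (-1.26), 5 of 9 for pyrimidine synthesis (-0.27), 8 of 10 for deoxynucleotide synthesis (-1.22), 7 of 12 for the nucleotide kinases (-0.87) and 3 of 6 for purine breakdown (-0.18). PRPS1, which makes the PRPP that PPAT uses, went from 1625 ± 101 units in normoxia cells to 244 ± 73.8 in normoxia EVs (SD, n = 3), and over both oxygen states its log2 difference was -2.82 (limma adjusted p = 1.64e-12). RRM1, the other ribonucleotide reductase subunit, was at -2.19 (limma adjusted p = 8.49e-12).

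Across the 10 members the EV difference ran with transcript base composition. GC content of the principal transcript was lowest in PPAT (37.9%), GMPS (40.9%) and PAICS (42.3%) and highest in PFAS (58.2%) and IMPDH1 (62.8%). Pearson's r between GC content and the log2 difference was 0.88 and Spearman's rho 0.85 over the 10 members, and 0.56 and 0.61 over the 10254 protein-coding genes whose mean reached 100, all measured in the same 12 libraries. Genes are not independent replicates, and these are descriptions. Every member lay below the median of genes in its 5-point GC bin: PAICS at -3.56 beside a bin median of -1.31, PPAT at -2.92 beside -1.71, and IMPDH1 at -0.46 beside 0.16. Depth differed between EVs and cells as given above, and its part in the difference was not tested.

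**Figure D4:**
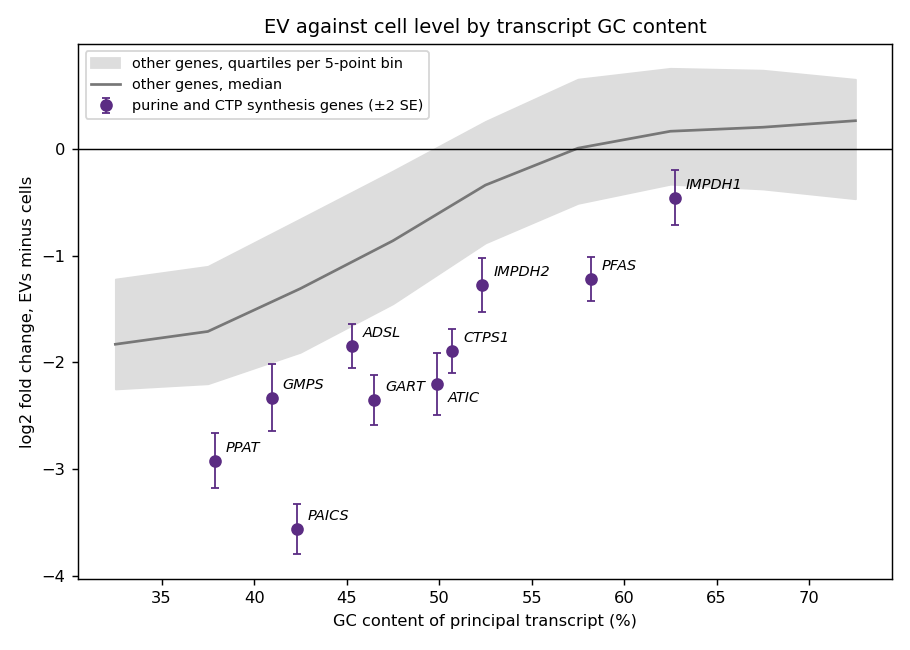
EV minus cell log2 fold change of the members (points, ±2 SE) against GC content of the principal transcript in percent, over the median (line) and quartiles (grey) of other protein-coding genes per 5-point GC bin. Members lie below the line, from PAICS at -3.56 to IMPDH1 at -0.46.

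Hypoxia EVs had lower means than normoxia EVs for all 10 members, but the libraries spread more than in cells. By limma-trend 3 of 10 were called lower (GART, ATIC and CTPS1) and 0 higher, beside 6.62% and 5.68% (12.3% together) of the 27904 genes tested. The groups did not overlap for 7 members, beside 14.5% of genes that were lower without overlap, and 8 were lower at an unadjusted p under 0.05, beside 13.6% of genes. On the recovered reads edgeR called 4 lower, beside 8.88% of genes, and DESeq2 6, beside 10.7%. The members' median was -0.66 on the log2 scale, against 0.60 over all genes. The latter reach down to a mean of 10, and the near-silent density was higher in hypoxia EVs, so genes at like levels are not compared.

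GART had 540, 429 and 485 units in normoxia EVs and 227, 250 and 353 in hypoxia EVs, a log2 fold change of -0.83 (SE 0.26, limma adjusted p = 0.0426). ATIC had 659, 407 and 297 units against 234, 212 and 257, with normoxia libraries that spread more than the hypoxia libraries, and a log2 fold change of -0.88 (SE 0.29, limma adjusted p = 0.0485). CTPS1 had 580, 686 and 514 units against 347, 332 and 358, and its fold change was -0.77 (SE 0.24, limma adjusted p = 0.0407). Each of the 3 had a gap between its groups.

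PPAT had 159, 119 and 172 units in normoxia EVs and 80.2, 80.7 and 75.7 in hypoxia EVs (-0.90, SE 0.39, limma adjusted p = 0.110), which rest on 30 to 60 reads per hypoxia library. PFAS had 768, 623 and 627 units against 594, 612 and 487, the smallest difference of the 10 (-0.25, SE 0.23, limma adjusted p = 0.413). The remaining values ran from -0.49 for PAICS to -0.69 for GMPS, and PAICS, IMPDH2 and GMPS had overlapping groups.

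The near-silent density gives a share of these values. Multiplied by the principal transcript's length, it came to 75.1% to 85.0% of the PPAT value in hypoxia EVs, 38.4% to 68.6% for GMPS and 33.5% to 45.8% for PAICS, but 2.66% to 3.88% for IMPDH2. In cells it was at most 1.03% of any member's value. In normoxia EVs it was 11.1% to 24.99% for PPAT, so the share of PPAT that matches the density was larger in hypoxia EVs than in normoxia EVs. For CTPS1 it was 15.1% to 16.3% in hypoxia EVs. The density was counted per kilobase of the exons of all models, which are longer than the principal transcripts. They come to 5439 bases beside 3682 for PPAT, and to 11517 beside 3201 for CTPS1. All shares given here, those in cells included, are therefore lower than shares by that longer length would be. The part of this background in the result was not tested beyond the fit below.

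The EV calls moved with scaling and with single libraries. With equal library totals the median of all genes rose from 0.60 to 1.21, 0 members were called, and PFAS (0.31), PAICS (0.07) and ADSL (0.03) turned positive. That scaling called 4404 genes higher and 188 lower, against 1586 and 1846 with the deposited factors. TMM factors called 7 members, beside 4366 genes in all, and removing the near-silent density from every value called 6, beside 3659 genes. That removal, which uses the exons of all models, took PPAT to 0 in the 3 hypoxia EV libraries and made its value -6.74 (limma adjusted p = 0.0163), a fold that depends on the pseudocount. Leaving out normoxia EV replicate 3 gave 6 called members, beside 10078 genes in all. Leaving out any of the other 5 EV libraries gave 0 members, beside 7 to 636 genes. The main fit called 3432 genes, so the member counts moved with the counts over all genes.

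Of the 75 related genes, 8 were lower in hypoxia EVs (10.7%) and 3 were higher, beside 6.62% and 5.68% of all genes, shares that are near. Among the lower genes were TALDO1, HPRT1, UCK1, UCKL1, TK1 and AK6, and the higher genes were ALDH1L1, ADSS1 and XDH. HPRT1, which salvages hypoxanthine and guanine to IMP and GMP, had 744 ± 355 units in normoxia EVs, against 302 ± 62.2 after hypoxia (SD, n = 3; log2 fold change -1.22, SE 0.29, limma adjusted p = 0.0177). These EV calls were lost in 4 to 11 of 17 alternatives per gene: ADSS1 in 11, ALDH1L1 in 9, AK6 in 8, TALDO1 and TK1 in 6, HPRT1 in 5, and UCK1, UCKL1 and XDH in 4. By list, the counts lower and higher were 1 and 0 for PRPP supply, 1 and 1 for folate one-carbon supply, 1 and 1 for the AMP branch and salvage, 2 and 0 for pyrimidine synthesis, 1 and 0 for deoxynucleotide synthesis, 2 and 0 for the nucleotide kinases and 0 and 1 for purine breakdown.

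**Figure D5:**
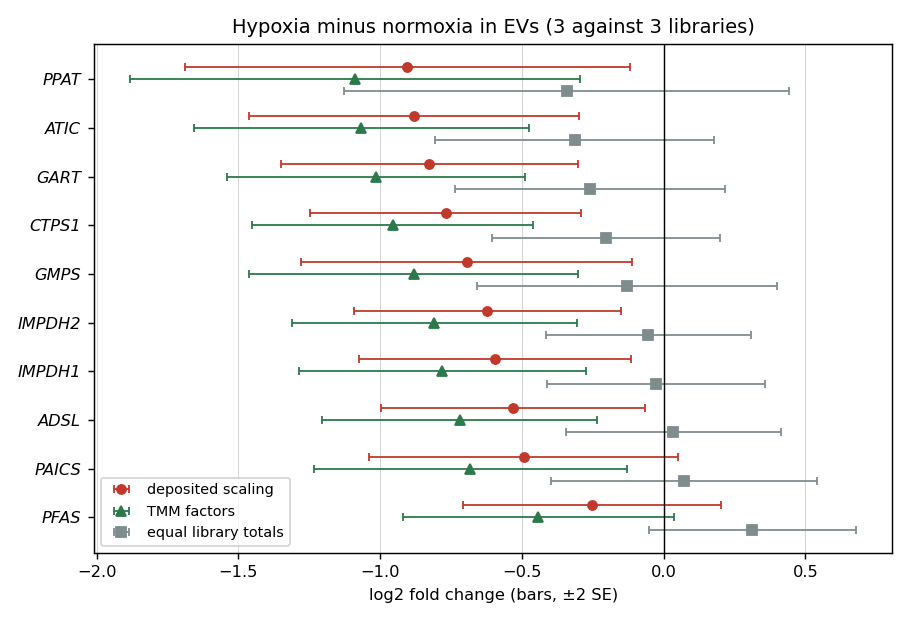
Hypoxia minus normoxia in EVs as log2 fold change with ±2 SE bars, under the deposited scaling (circles), TMM factors (triangles) and equal library totals (squares). With equal totals PFAS, PAICS and ADSL lie above 0, and under the other scalings shown all 10 lie below.

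The difference between the EV and the cell response was tested itself, as an interaction over all 12 libraries, and 0 of 10 members were called, beside 2.31% of genes (1.87% lower and 0.443% higher). PFAS had the highest value, with a response of -0.80 in cells and -0.25 in EVs and a difference of 0.54 (SE 0.21, limma adjusted p = 0.149). PPAT had the lowest, -0.59 (SE 0.26, limma adjusted p = 0.193). These 2 had an unadjusted p under 0.05, as did 21.4% of genes. On the recovered reads edgeR called 0 members, beside 6.88% of genes, and DESeq2 1, beside 9.06%, which was PFAS (0.57, DESeq2 adjusted p = 0.02). With the near-silent density removed PFAS was not called, at 0.35, and PPAT (-6.42, limma adjusted p = 8.75e-06) and CTPS1 (-1.31, limma adjusted p = 0.00667) were. That removal uses the exons of all models, which for CTPS1 come to 11517 bases beside 3201 in its principal transcript. It took PPAT to 0 in all hypoxia EV libraries, so the PPAT fold depends on the pseudocount. How far the CTPS1 value rests on the length used was not tested. With equal library totals PFAS was called at 0.98 (limma adjusted p = 0.00704).

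The 10 members varied together over the libraries. Over all 12, the 45 pairs of members had a median Pearson's r of 0.96 on the log2 scale (range 0.61 to 0.99), and over the 6 cell libraries 0.92 (0.75 to 1.00), values that share the same libraries and groups. Among 10249 candidate protein-coding genes, those most like the members' mean over the 12 libraries were ATP5PB (r = 0.999), KPNB1 (0.998), DHX9 (0.997), PRDX6 (0.997) and MRPL3 (0.997). These r carry the cell and EV difference and the hypoxia difference together, so many genes can reach such values.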

How the data were processed

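Total RNA libraries of cells and EVs (12 libraries, 4 groups by the sample titles) were deposited by the authors as a signal for each gene, made from read counts with 1 scaling factor in each library. The values show this, because 100% of them came out as whole reads (tolerance 0.01). Tools and builds in the submitters' processing notes are Bowtie 0.12.2, DESeq2 1.30.1, hg38 and GRCh38. Counter, annotation, strand setting and filters: not given in the sources used here. Of 57773 IDs, 52338 matched GENCODE release 29 on GRCh38, the source of names, positions and lengths. Same-group libraries differed by more than sampling of reads gives (chi-square divided by its degrees of freedom 5.05 to 13.4 over 12 pairs), and each was counted once.

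Deposited values were tested as log2(value + 1) by limma-trend, two-sided (R 4.3.3, limma 3.58.1), adjusted by Benjamini-Hochberg over every gene whose mean in the fitted libraries reached 10, at a threshold of 0.05. Fold changes are on that scale and understate the change of low genes. The hypoxia fits used 6 cell or 6 EV libraries, and EVs against cells and the interaction used all 12. Alternatives were TMM factors, equal totals, pseudocounts (0.5 and 5), other filters (a mean of 50, or no filter), edgeR 4.0.16 and DESeq2 1.42.0 on recovered reads, a replicate block, removal of the near-silent density, a fit of all 12 libraries and leaving out each library. The limma fit of the cell libraries was tested on simulated cell counts with 200 changed genes, and the other fits were not tested in this way. All members were named, with up to 2 genes per list and comparison by smallest p past the threshold and the 5 genes most like the members. Some genes that this rule gives among the lists are not reported here. Members and lists were chosen with earlier results of these data known. The SEs and the error bars of the fold changes come from the limma fits and measure the spread among libraries. An interval or floor taken from read counts alone, without molecular identifiers, would cover counting error only.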

Additional observations from a re-analysis of the deposited data

Results flagged for a closer look

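Among the 75 genes of the related lists, 3 had a hypoxia response in EVs that differed from that in cells by the interaction test (limma-trend). Of these, 2 were lower (2.67%) and 1 was higher, beside 1.87% and 0.443% of all genes. The share lower is near that of all genes, so the count is no result about the lists. UCK1, a uridine-cytidine kinase, had a difference of -1.05 on the log2 scale (SE 0.25, adjusted p = 0.0358), with 448 to 484 units in normoxia cells, 452 to 507 in hypoxia cells, 835 to 1110 in normoxia EVs and 373 to 600 in hypoxia EVs. TK1, thymidine kinase, had a difference of -1.125 (SE 0.28, adjusted p = 0.0394), rising in cells from 694 to 714 units to 789 to 940.2, and going in EVs from 645 to 1148 to 458 to 646. XDH, which oxidises xanthine to uric acid, had a difference of 2.72 (SE 0.62, adjusted p = 0.0312), with 18.8 to 40.3, 9.44 to 21.1, 42.8 to 59.5 and 130 to 232 units in the same 4 groups. The near-silent density over its principal transcript came to 44.3 units in normoxia EVs and 96.1 in hypoxia EVs, beside XDH means of 49.1 and 181. That density was counted per kilobase of the exons of all models, so these amounts may be too low. Over 22 alternatives UCK1 ranged from -1.23 to -0.60 (called in 11), TK1 from -1.39 to -0.68 (called in 10) and XDH from 2.42 to 6.04 (called in 13).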

How the results depend on the processing

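All 10 members stayed lower in EVs than in cells and were called in every alternative run. In cells the count of called members was 7 to 10 in all alternatives but the fit of all 12 libraries, which called 2 members and 84 genes (main 10 and 5254); leaving out a library gave 9 to 10 members and 4299 to 4728 genes. Equal totals split the cell calls into 2306 higher and 2038 lower, against 1383 and 3871.

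In EVs 3 members were called in the main fit, against 1 with a pseudocount of 0.5, 0 without a filter, 7 with TMM factors, 0 with equal totals, 6 with DESeq2, 6 with the near-silent density removed and 9 in the fit of all 12 libraries; leaving out a library gave 0 to 6. All genes called in EVs numbered 3432, against 5311 with a pseudocount of 5, 5409 with the replicate block and 8238 in the fit of all 12 libraries; leaving out a library gave 7 to 10078. With equal totals PFAS (0.31), PAICS (0.072) and ADSL (0.034) turned positive in EVs. EVs against cells called 18094 genes, and 10666 with a filter mean of 50.

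For the difference of responses 0 members were called, against 1 with equal totals, 1 with DESeq2 and 2 with the density removed; leaving out a library gave 0 to 1. Over all genes 559 were called, against 873 with a filter mean of 50, 105 without a filter, 1805 with TMM factors, 1664 with edgeR, 2189 with DESeq2, 326 with the replicate block and 2159 with the density removed; leaving out a library gave 38 to 5438. With equal totals the signs of GART (0.22), PAICS (0.13), ATIC (0.32), IMPDH1 (0.38), IMPDH2 (0.32) and CTPS1 (0.056) turned; ADSL turned with TMM factors (-0.029) and with the density removed (-0.16). ATIC turned without normoxia EV replicate 1 (0.18), IMPDH1 without normoxia EV replicate 2 (0.11) and without hypoxia EV replicate 3 (0.068), and IMPDH2 in the same 2 settings (0.083 and 0.000101). Leaving out a library gave -0.39 to 0.18 for ATIC, -0.27 to 0.11 for IMPDH1 and -0.36 to 0.083 for IMPDH2. The cause was not tested.

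The replicate numbers are in the titles, but no label says what they share. Same-numbered libraries did not deviate together (r from -0.117 to 0.061 over 12 pairs of such libraries). The replicate block, which called 4 members in EVs, is therefore given here only.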
